A study of Mus musculus with 5 samples.

Results

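A set of 9 genes that mark developmental time in neural stem/progenitor cells (NSPCs) was named for this account, 4 early genes (Hmga1, Hmga2, Igf2bp2 and Igf2bp3) and 5 late genes (Nfia, Nfib, Nfic, Nfix and Zbtb20). They were chosen by symbol and not by a cut on a measured value, but with earlier results of these data known. Listed transcripts were found for 8 of these 9 genes, out of 12588 gene sums in the table, and they comprise 24 of 22227 transcripts. Igf2bp3, an embryonic RNA-binding protein of the same family as Igf2bp2, has no listed transcript and was not analysed here.

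RNA-Seq was performed on untreated mouse NSPC cultures of the C57BL/6J strain, proliferating with FGF-2 and EGF (20 ng/ml of each). Of the 5 libraries, 2 are labelled WT (p75NTR+/+ litter mates, replicate numbers 1 and 4) and 3 are labelled p75NTR-/- (replicate numbers 1, 2 and 4). The labels give the cells as embryonic, taken at E12.5, whereas the study's methods speak of NSPCs from the adult subventricular zone, so the early and late genes bear on a point where the sources differ. The knockout allele is present in every cell of the animal rather than driven by a cell type promoter. The study says that its RNA-Seq came from 4 replicas of independent NSPC preparations, but 2 WT and 3 p75NTR-/- libraries are described here. The sources do not say how many embryos or cultures went into a library, so p-values measure only the spread between these libraries.

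Early progenitors of the forebrain contain abundant Hmga proteins, small non-histone chromatin proteins that bind AT-rich DNA in the minor groove, and Igf2bp proteins, which bind mRNAs and affect their stability and transport. Lin28 keeps the let-7 miRNAs low at early stages, and as let-7 accumulates it represses Hmga2 and other early transcripts. Nuclear factor I proteins (Nfia, Nfib, Nfic, Nfix) are a family of transcription factors, some of which appear later and are needed for the onset of gliogenesis. Zbtb20, a zinc finger repressor, is known from the hippocampus and from astrocyte formation.

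The let-7 family is shown first, because every listed early gene holds a match to its seed. In the RefSeq table for GRCm38.p6, 10 of the 11 mature let-7 and miR-98 sequences share the seed of let-7a (bases 2 to 8, in capitals), and mmu-let-7j carries another. The sequences of 3 of the 10 are printed here, 5′ to 3′.
mmu-let-7a-5p: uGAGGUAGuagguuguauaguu
mmu-let-7b-5p: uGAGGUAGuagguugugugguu
mmu-let-7i-5p: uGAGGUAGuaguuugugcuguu
The seed-complementary heptamer CTACCTC was searched on the transcript strand of the 3′ UTR of every listed transcript that could be matched to the GENCODE annotation. Hmga2 holds 4 matches, which lie 21, 1258, 1696 and 2554 bases after the stop codon, and Hmga1 and Igf2bp2 hold 1 each. The following target-site windows (GRCm38, capitals marking the heptamer) are all exonic and within the 3′ UTR.
Hmga2, minus strand, chr10:120364224-120364245: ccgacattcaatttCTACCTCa
Hmga2, minus strand, chr10:120362987-120363008: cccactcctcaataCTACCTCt
Hmga2, minus strand, chr10:120362549-120362570: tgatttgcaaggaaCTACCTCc
Hmga2, minus strand, chr10:120361691-120361712: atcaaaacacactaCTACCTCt
Hmga1, plus strand, chr17:27563278-27563299: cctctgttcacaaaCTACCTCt
Igf2bp2, minus strand, chr16:22059473-22059494: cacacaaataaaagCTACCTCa
The Igf2bp2 window is common to both of its listed transcripts. Of 19745 listed transcripts with a 3′ UTR, 8.13% hold the heptamer, and of the 5987 whose 3′ UTR has a length within a factor of 2 of that of Hmga2, 15.5% hold at least 1 and 0.0501% hold at least 4. At least 1 match is held by 8.13% of the length class of Hmga1 and by 8.87 to 10.8% of those of Igf2bp2. Among the late genes, 4 of the 5 Nfia transcripts hold 1 match in a 3′ UTR of 7577 to 7639 bases. In that length class 29.8 to 29.9% hold one. No match was found in the listed transcripts of Nfib, Nfic, Nfix and Zbtb20. The Nfix transcripts other than ENSMUST00000109764 have 3′ UTRs of only 72 to 84 bases, where 0.556 to 0.862% hold one. Nfia ENSMUST00000152023 and Zbtb20 ENSMUST00000156367 have no annotated 3′ UTR. These are letter matches, and no miRNA was measured in these libraries.

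Total counts per library ranged from 11688211 to 14452396, and a count of 0 allows up to 3 counts, or 2.94 to 3.6 normalized counts depending on the library. These limits cover counting error only. Ngfr, the gene that encodes p75NTR, had 0.98 and 2.08 normalized counts in WT replicates 1 and 4, and 9.89, 140.6 and 251 in p75NTR-/- replicates 1, 2 and 4. The order goes against the labels, although a whole-transcript value cannot tell an intact RNA from one that lacks the deleted part, so all directions below refer to the libraries as labelled. Of the progenitor markers fixed for the check, 8 of 8 were listed, with nestin (Nes) at 8704 to 23122 and vimentin (Vim) at 20556 to 44562 normalized counts. No marker of microglia was listed (0 of 6), and the lone endothelial marker (Kdr, of 6) and the lone fibroblast marker (Col1a1, of 5) stayed at or below 0.66 TPM. Of 7 neuronal markers 3 were listed (Map2, Tubb3 and Snap25, without Dcx, Rbfox3, Stmn2 and Syt1), and of 8 oligodendrocyte lineage markers 5 were listed (Sox10, Mbp and Mog were not).

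The early genes varied widely between libraries, and the high values fell in both libraries numbered 4, 1 of each label. Values are gene sums, that is, the normalized counts of a gene added up over its listed transcripts. Hmga1, which has 1 listed transcript (ENSMUST00000114888, 5 exons, chr17:27556585-27563668), measured 31.4 and 174 in WT replicates 1 and 4, and 48.5, 63.7 and 214 in p75NTR-/- replicates 1, 2 and 4. Hmga2, also with 1 listed transcript (ENSMUST00000072777, 5 exons, chr10:120361275-120476469), measured 10.8 and 89.5 in the WT libraries and 16.8, 24.0 and 82.4 in the p75NTR-/- libraries, in the same order. For both genes the 2 libraries numbered 4 stood above the other 3, and the labels overlapped.

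Igf2bp2 had the widest range of the 8 genes. Its gene sum (2 listed transcripts, chr16:22059009-22163299) was 6.87 and 185 in WT replicates 1 and 4, and 14.8, 6.01 and 152 in p75NTR-/- replicates 1, 2 and 4. The libraries numbered 4 were again the high ones, with a smaller 10.3-fold and a larger 27.0-fold ratio to number 1 in p75NTR-/- and WT, respectively. The log2 range over the 5 libraries was 4.73 for Igf2bp2, 2.94 for Hmga2 and 2.73 for Hmga1. The median range was 0.61 over the 10786 gene sums with a mean of at least 50. Hmga2, at a mean of 44.7, is not among these. Hmga1 and Igf2bp2 reached a mean of 50 only through the libraries numbered 4, so the filter partly set this comparison. Number 4 over number 1 was 5.53-fold in WT and 4.42-fold in p75NTR-/- for Hmga1, and 8.29-fold and 4.90-fold for Hmga2.

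Both libraries numbered 4 were above the other 3 for 3 of 3 early genes and for 1 of 5 late genes (Nfic, by a margin of 1.00-fold), where 23.4% of all gene sums with a mean of at least 10 showed this order. The lower number 4 library exceeded the highest of the other 3 by 2.73-fold for Hmga1, 3.43-fold for Hmga2 and 10.3-fold for Igf2bp2, and a gap of at least 2-fold was found for 2.02% of gene sums and one of at least 3-fold for 0.812%. Igf2bp2 passed the minimum mean of 10 only through the libraries numbered 4, so its place in this count was partly set by the filter. The split by replicate number was known from earlier results of these data and is described with no test. Other values moved with it. The summed TPM of the progenitor markers was 1859 to 2005 in the libraries numbered 4 and 1128 to 1288 in the other 3, and Vim carried this difference, at 1561 and 1676 TPM in number 4 and 781 to 925 in the others. Without Vim the other 7 progenitor markers summed to 299 and 329 TPM in number 4 and to 341 to 366 in the others, the opposite order. The oligodendrocyte lineage markers summed to 346 to 364 TPM in number 4 and 632 to 946 in the others, and the neuronal markers, nearly all Map2, to 629 to 669 and 923 to 979. Their part in the values of the early genes was not tested, and in bulk RNA fewer cells of a type and less RNA per cell cannot be told apart.

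**Figure D1:**
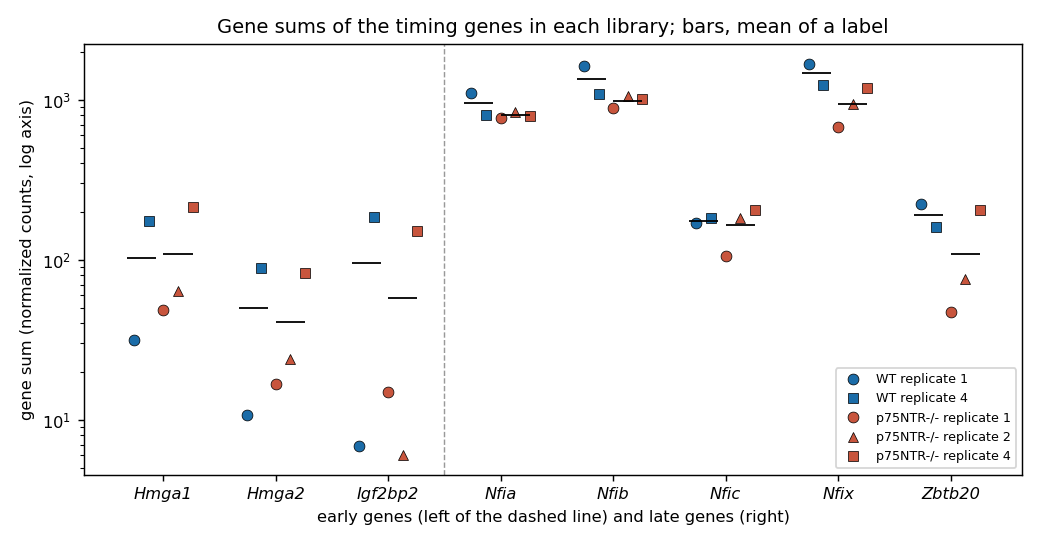
Gene sum of each timing gene (normalized counts, log axis) in the 5 libraries, with colour for the label, symbol shape for the replicate number and a bar at the mean of each label. For Hmga1, Hmga2 and Igf2bp2 the squares (number 4) of both labels lie above the other points, whereas for the Nfi genes the 5 points span a smaller range.

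Hmga1 shares most of its sequence with Hmga1b, an intronless copy listed on another chromosome (ENSMUST00000105046, 1 exon, chr11:120762794-120764419). Of the 31-base words of the Hmga1 transcript (1631 bases), 88.1% also occur in the Hmga1b transcript (1626 bases), so the split of reads between them is uncertain. As a gene sum over 2 listed transcripts, Hmga1b measured 94.2 and 777 in WT replicates 1 and 4, and 109.8, 196 and 970 in p75NTR-/- replicates 1, 2 and 4. ENSMUST00000105046 alone had 50.05 and 342 in WT and 36.6, 94.9 and 412 in p75NTR-/-, in the same order. The other transcript, ENSMUST00000178955, has 120 bases, and 100% of its 31-base words occur in the Hmga1 transcript. Summed, the pair gave 126 and 951 in WT and 158, 259 and 1184 in p75NTR-/-, a number 4 to number 1 ratio of 7.57 in WT and 7.48 in p75NTR-/-. The order of the libraries was the same whether the copy was added or not.

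Nfia and Nfib, late genes of the same family, varied less between libraries than any early gene. Nfia (5 listed transcripts, the leading one ENSMUST00000107062 on chr4:97777803-98118871) had gene sums of 1100.1 and 806 in WT replicates 1 and 4 and of 769.8, 834 and 792 in p75NTR-/- replicates 1, 2 and 4. Nfib (5 listed transcripts, chr4:82290173-82505770) had 1627 and 1086 in WT and 885, 1052 and 1013 in p75NTR-/-. WT replicate 1 was the highest library for both genes. The labels overlapped for Nfia and did not for Nfib, where the lowest WT value, 1086, lies just above the highest p75NTR-/- value, 1052.

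Nfix and Nfic ordered the libraries differently. Nfix (4 listed transcripts, the leading one ENSMUST00000109764 on chr8:84704712-84773396) had gene sums of 1682 and 1236 in WT and of 676, 947 and 1187 in p75NTR-/-, so that the labels did not overlap. Nfic (3 listed transcripts, the leading one ENSMUST00000117966 on chr10:81400953-81431005) had 169.8 and 182 in WT and 105, 181 and 205 in p75NTR-/-, with p75NTR-/- replicate 1 apart from the other 4 libraries. All 5 late genes had their lowest value in that library, and 4 of the 5, all but Nfic, had their highest in WT replicate 1. The share of all gene sums with these extremes was not counted, so they are not shown to be particular to the late genes. The log2 range over libraries was 0.51 for Nfia, 0.88 for Nfib, 0.96 for Nfic and 1.31 for Nfix, so that Nfia alone lay under the median of 0.61 given above.

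Zbtb20 (3 listed transcripts, chr16:42907652-43642602) varied more than the Nfi genes, with a log2 range of 2.21. Its gene sum was 224 and 159 in WT replicates 1 and 4, and 47.5, 75.7 and 205 in p75NTR-/- replicates 1, 2 and 4. The 2 low libraries are p75NTR-/- replicates 1 and 2, whereas p75NTR-/- replicate 4 lies between the WT libraries, so the labels overlapped. Number 4 over number 1 was 4.32-fold in p75NTR-/- and 0.71-fold in WT.

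To identify timing genes that differ between the labels, log2(normalized count + 1) was compared with limma over all gene sums and over all transcripts. Changes of low genes are understated on this scale. A feature was called at an adjusted p (Benjamini-Hochberg) under 0.05, a 1.5-fold change or more and a mean of 50 or more normalized counts, and 7 of the 8 gene sums reach that mean (Hmga2, at 44.7, does not). None of the 8 timing gene sums was called, where 0.00794% of all gene sums (1 of 12588) were, and 0 of the 8 had an unadjusted p under 0.05 in limma, where 2.08% of all did. None of the 24 timing transcripts was called, where 0.0135% of all transcripts were. Transcripts under the mean of 50 could not be called, and of the early genes only Hmga1 had a transcript that reached it. Without both libraries numbered 4, WT replicate 1 alone stands for WT, so no count of genes that pass is given for that fit. A single value compared exactly between 2 and 3 libraries has a smallest possible p of 0.1.

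The 3 early genes had wide intervals around differences near 0. For Hmga1, the WT mean was 103 ± 100.6 (SD, n = 2) and the p75NTR-/- mean 109 ± 91.8 (SD, n = 3), and the log2 difference, p75NTR-/- minus WT, was 0.23 ± 0.97 (SE) with a 95% interval of −2.24 to 2.71 (limma adjusted p = 0.98). For Hmga2, the means were 50.1 ± 55.6 and 41.1 ± 36.0 and the difference was 0.03 ± 1.09, with an interval of −2.76 to 2.83 (limma adjusted p = 0.997). For Igf2bp2, the means were 96.0 ± 126 and 57.7 ± 81.9 and the difference was −0.57 ± 1.87, with an interval of −5.37 to 4.22 (limma adjusted p = 0.97). Intervals of this width hold differences of several fold in either direction, so a difference between the labels was not detectable here rather than absent.

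The early genes were also compared between the labels within a replicate number. The log2 difference p75NTR-/- minus WT was 0.61 in number 1 and 0.30 in number 4 for Hmga1, 0.60 and −0.12 for Hmga2, and 1.01 and −0.28 for Igf2bp2. Each of these values sets a single library against a single library and has no error. The sign held in both numbers for Hmga1 and turned for the other two.

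All 5 late genes had negative estimates, as did 49.3% of all gene sums, and none passed the test. Nfix had the largest estimate relative to its error. Its means were 1459 ± 316 in WT and 937 ± 256 in p75NTR-/-, a log2 difference of −0.66 ± 0.31 (SE) with a 95% interval of −1.44 to 0.12 (limma adjusted p = 0.93). Nfib, at 1357 ± 383 and 983 ± 87.8, differed by −0.44 ± 0.24 with an interval of −1.04 to 0.17. The labels of these 2 of 8 genes did not overlap, where 15.1% of gene sums with a mean of at least 10 did not overlap and 7.48% did not with p75NTR-/- as the lower.

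The difference was −0.24 ± 0.20 (interval −0.75 to 0.27) for Nfia, from means of 953 ± 208 and 799 ± 32.4. It was −0.16 ± 0.33 (interval −1.0 to 0.69) for Nfic, from 176 ± 8.68 and 164 ± 52.3. Zbtb20 had the largest estimate, −1.05 ± 0.65 with an interval of −2.71 to 0.60, from 191 ± 45.7 and 109 ± 84.0. The median difference was −0.44 over the 5 late genes, 0.03 over the 3 early genes and 0.0039 over all gene sums.

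In every late gene the labels lay further apart within number 1 than within number 4, as they did in every listed early gene. The share of all gene sums with this order was not counted, so it is not shown to be particular to the timing genes. Within number 1 the log2 difference between the labels was −0.51 for Nfia, −0.88 for Nfib, −0.69 for Nfic, −1.31 for Nfix and −2.21 for Zbtb20. Within number 4 it was −0.03, −0.10, 0.17, −0.06 and 0.36 for the same genes.

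**Figure D2:**
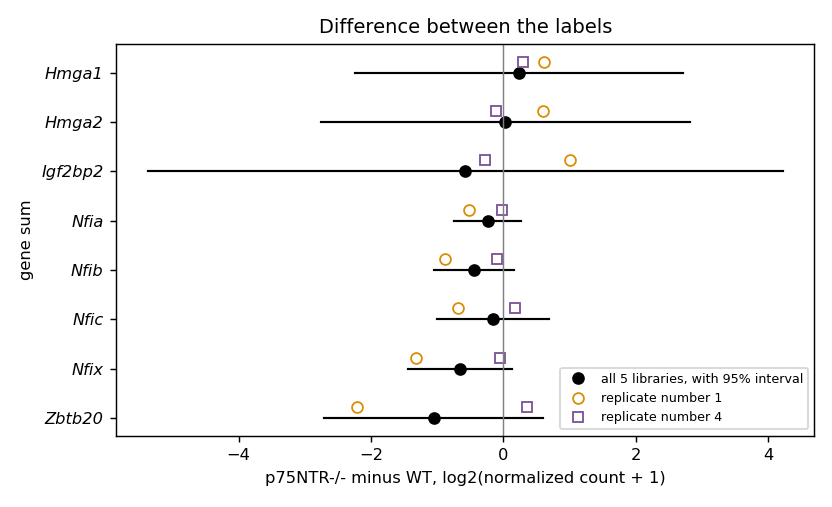
Log2 difference of the gene sums, p75NTR-/- minus WT, with the estimate and 95% interval from all 5 libraries (filled circles and lines) and the differences within replicate number 1 (open circles) and number 4 (open squares). Every interval crosses 0, and for Zbtb20 the difference is −2.21 in number 1 and 0.36 in number 4.

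**Figure D3:**
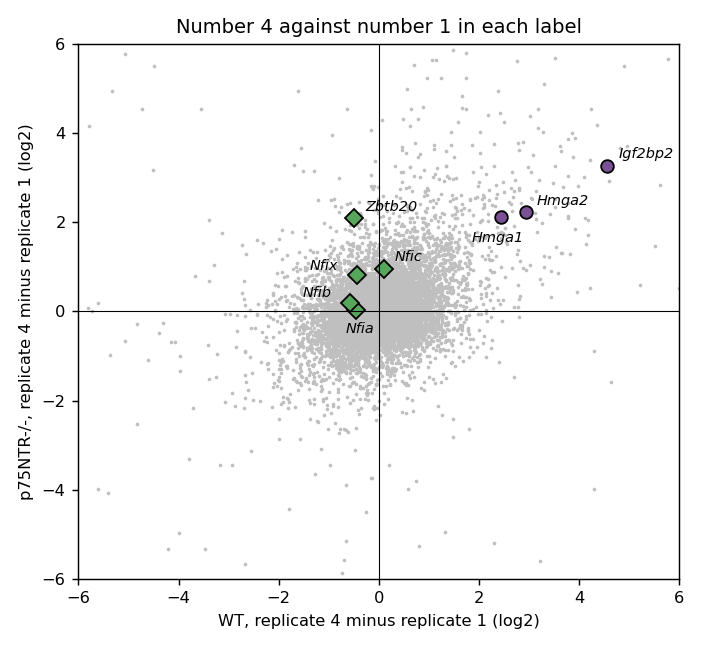
Log2 difference of number 4 minus number 1 in WT (horizontal axis) and in p75NTR-/- (vertical axis), with a grey dot for each gene sum of mean at least 10 (9 of 12194 lie outside the plotted range), circles for early genes and diamonds for late genes. Hmga1 (2.43 and 2.12), Hmga2 (2.94 and 2.23) and Igf2bp2 (4.56 and 3.27) lie at the upper right, and the late genes lie left of or near the vertical line.

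Early and late genes can be set against each other within a library, where the scaling of the library cancels but for the pseudocount. The mean log2 gene sum of the 3 early genes less that of the 5 late genes was −5.49 and −1.81 in WT replicates 1 and 4, and −3.63, −4.19 and −1.91 in p75NTR-/- replicates 1, 2 and 4. The difference was nearest to 0 in the 2 libraries numbered 4, and number 4 minus number 1 was 3.68 in WT and 1.72 in p75NTR-/-. When only transcripts with a mean of at least 50 were used, which leaves Hmga1 as the single early gene, the latter was 0.46 and the former 4.27. The means of the labels, −3.65 ± 2.61 (SD, n = 2) for WT and −3.24 ± 1.19 (SD, n = 3) for p75NTR-/-, differed by 0.41, less than the pooled SD of 1.79.

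Levels of different genes were compared per length, as TPM summed over the listed transcripts. The late genes summed to 172 and 131 TPM in WT replicates 1 and 4 and to 88.8, 112 and 121 in p75NTR-/- replicates 1, 2 and 4. The early genes summed to 12.8 and 83.6 TPM in WT and to 20.2, 26.9 and 92.7 in p75NTR-/-. The ratio of late to early was therefore 13.5 in WT replicate 1, 4.39 and 4.18 in p75NTR-/- replicates 1 and 2, and 1.56 and 1.31 in the libraries numbered 4.

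By mean TPM over the 5 libraries the order was Nfix (44.1, range 26.3 to 64.4), Nfib (35.9, 26.8 to 51.7), Hmga1 (33.8, 9.88 to 67.5), Nfia (30.1, 25.9 to 39.9), Hmga2 (11.5, 2.70 to 23.2), Nfic (8.79, 5.50 to 10.5), Zbtb20 (6.29, 2.95 to 10.4) and Igf2bp2 (1.96, 0.18 to 4.91). Only Nfia and Hmga2 are neighbours in this order with ranges that do not overlap. Hmga1 was the highest of the 8 in both libraries numbered 4 and the 4th highest in the other 3. With normalized counts per kilobase of transcript in place of TPM, Hmga1 moved to the 5th place and Hmga2 to the last. On that scale Hmga1 was 4th in WT replicate 4 and 3rd in p75NTR-/- replicate 4, and not the highest in either. The ratio of late to early was then 51.7 in WT replicate 1, 15.9 and 16.6 in p75NTR-/- replicates 1 and 2, and 5.12 and 4.22 in the libraries numbered 4, so the ranks and the size of the ratio depend on the length scale.

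**Figure D4:**
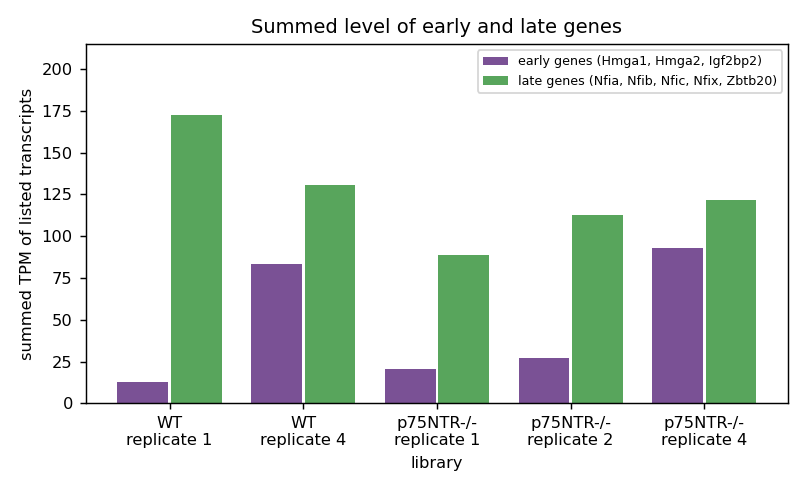
TPM summed over the listed transcripts of the early genes and of the late genes in each of the 5 libraries, on an axis that starts at 0. The early bars reach 83.6 and 92.7 TPM in the libraries numbered 4 and at most 26.9 in the other 3, and the late bars range from 88.8 to 172.

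The transcript that carried most of a gene's counts differed between libraries for 5 of the 8 genes, Igf2bp2, Nfib, Nfic, Nfix and Zbtb20. These values are Salmon's division of reads among overlapping transcripts, and 8 of the 24 transcripts had 3 counts or fewer in at least 1 library. In Zbtb20 the leading transcript went to 0 in other libraries. ENSMUST00000114694 (15 exons, 26901 bases, of which 23465 are unique to it among the annotated transcripts of the gene) had 209 normalized counts in WT replicate 1, 0 in WT replicate 4, and 0.99, 20.4 and 186 in p75NTR-/- replicates 1, 2 and 4. ENSMUST00000114691 (7 exons, 2891 bases, 0 of them unique) had 0, 121, 36.6, 46.9 and 0 in the same libraries. The long transcript thus led in WT replicate 1 and p75NTR-/- replicate 4 and the short one in the other 3, which follows neither label nor number. The third, ENSMUST00000156367, had 8.41 to 38.5.

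Igf2bp2 was also divided unevenly. ENSMUST00000100052 (16 exons) had 6.87 and 138 in WT replicates 1 and 4 and 0, 0 and 84.5 in p75NTR-/- replicates 1, 2 and 4. ENSMUST00000115379 (15 exons) had 0 and 46.8 in WT and 14.8, 6.01 and 67.6 in p75NTR-/-. In the libraries numbered 4 both transcripts were present with the first ahead, whereas each of the other 3 libraries had counts of 1 transcript. At 5 to 15 counts in those 3 libraries, the choice between the transcripts rests on few reads.

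The Nfi transcripts were mixed in every library. For Nfia, ENSMUST00000107062 led in all 5, at 387 to 572 normalized counts, followed by ENSMUST00000075448 at 148 to 316. The latter was lower in both libraries numbered 4 (181 in WT and 148 in p75NTR-/-) than in the other 3 (288 to 316). The remaining 3 had 24.3 to 112 (ENSMUST00000152023), 9.61 to 85.4 (ENSMUST00000092532) and 0 to 30.6 (ENSMUST00000052018).

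For Nfib, ENSMUST00000064770 had 763 and 574 in WT and 245, 437 and 522 in p75NTR-/-, and ENSMUST00000050872 had 570.2 and 289 in WT and 438, 424 and 326 in p75NTR-/-. The former was ahead in all libraries but p75NTR-/- replicate 1. ENSMUST00000107246 had 73.3 to 196 and ENSMUST00000107247 had 51.8 to 118. The lowest, ENSMUST00000107245 (11 exons, 0 unique bases), had 28.5 and 17.7 in WT and 0, 0 and 7.40 in p75NTR-/-. It was the only timing transcript of 24 with an unadjusted p under 0.05 in limma (adjusted p = 0.96), where 3.14% of all transcripts had one, and its mean of 10.7 lies under the minimum for a call.

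For Nfix, ENSMUST00000109764 had 783 and 644 in WT and 289.9, 394 and 532 in p75NTR-/-, and ENSMUST00000099070 had 742 and 483 in WT and 352, 452 and 527 in p75NTR-/-. ENSMUST00000109762 had 33.6 to 128, and ENSMUST00000076715 had 33.4 in WT replicate 1 and 0 in the other 4 libraries. For Nfic, ENSMUST00000117966 had 26.7 to 110.5, ENSMUST00000020461 had 81.5 and 87.4 in WT and 63.3, 26.4 and 64.4 in p75NTR-/-, and ENSMUST00000105321 had 0 and 19.8 in WT and 14.8, 44.5 and 48.6 in p75NTR-/-. The labels did not overlap for 5 of the 23 timing transcripts with a mean of at least 10 (1 of Nfic, 1 of Nfix and 3 of Nfib, all lower in p75NTR-/-), where 16.7% of all such transcripts did not overlap in either direction.

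**Figure D5:**
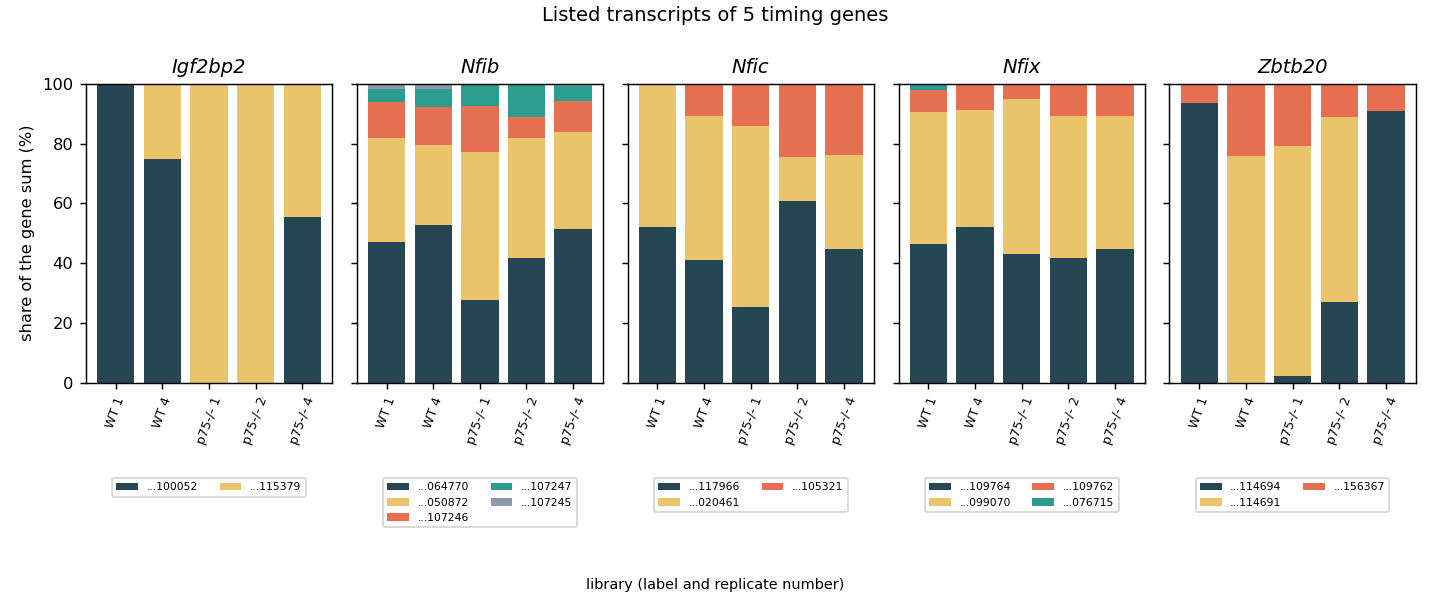
Share of each listed transcript (last 6 digits of its identifier) in the gene sum, in percent, for the 5 timing genes whose leading transcript differs between libraries; p75-/- stands for p75NTR-/-. In Zbtb20 the dark bar (ENSMUST00000114694) fills most of WT replicate 1 and p75NTR-/- replicate 4 and is absent from WT replicate 4.

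The genes whose pattern over the 5 libraries was most like that of Igf2bp2, the early gene with the widest range, were Ptprn, a receptor-type phosphatase of secretory granules, Glipr2 and Atf3, a stress-induced transcription factor. Likeness was measured as the root mean square distance between log2 deviations from the mean, over 5 libraries and 10785 symbols with a mean of at least 50. It was 0.31 for Ptprn, 0.46 for Glipr2 and 0.48 for Atf3. Glipr2 and Atf3 reached that mean only through the libraries numbered 4, with 20.6 to 30.7 and 14.7 to 46.5 normalized counts in the others. Ptprn had 37.3 and 1189 normalized counts in WT and 85.1, 61.3 and 1126 in p75NTR-/-. For Zbtb20, the late gene with the widest range, the nearest genes were Kcna6 (0.078), a potassium channel subunit, Mxi1 (0.10), an antagonist of Myc, and Id2 (0.15), an inhibitor of basic helix-loop-helix factors. Id2 had 1176 and 805 in WT and 258, 466 and 909.6 in p75NTR-/-.

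Genes of the Lin28 and let-7 pathway were read from a fixed list of 17, of which 11 were listed in the table and 0 passed the test. Lin28a and Lin28b, which block let-7 maturation, were not among them, nor were Trim71, Igf2bp1, Arid3b and Nr6a1. The highest by TPM included the D-type cyclins Ccnd1 and Ccnd2 and the small GTPase Nras. Ccnd1 had 2250.2 and 9953 normalized counts in WT and 8964, 8336 and 8677 in p75NTR-/-, and Ccnd2 had 1714 and 4466 in WT and 3813, 3103 and 3812 in p75NTR-/-, so that WT replicate 1 stood below the other 4 for both. Nras had 843 to 1022. The number 4 libraries were above the others for 1 of the 11 (Mycn) and below them for 2 (Nras and Dicer1), where 23.4% of all gene sums were above and 21.4% below, and the median log2 difference between the labels was 0.02, beside 0.0039 over all gene sums.

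Of 5 genes tied to Hmga2 in stem cell self-renewal, 5 were listed and 0 passed the test, with a median log2 difference of 0.0023. Junb, an AP-1 subunit, had 87.3 and 369 in WT and 92.0, 112 and 535 in p75NTR-/-. Cdkn1a, the cell cycle inhibitor p21, had 1924 and 3201 in WT and 2529, 2308 and 3592 in p75NTR-/-. The libraries numbered 4 were above the other 3 for these 2 of the 5, as for Hmga2, and below them for 1 (Bmi1). Of all gene sums with a mean of at least 10, 23.4% were above and 21.4% below. Cdkn2a, the locus of p16Ink4a and p19Arf, had 755 to 1117 and Bmi1, its Polycomb repressor, 1592 to 1749.

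Of 11 imprinted growth genes, 7 were listed (Igf2, H19, Meg3 and Cdkn1c were not) and 0 passed the test, with a median log2 difference of 0.08. Peg10, a retrotransposon-derived gene, had 1064 and 1554 in WT and 3727, 2948 and 1628 in p75NTR-/-, with a log2 difference of 1.02 ± 0.41 (SE; limma adjusted p = 0.93). Mest had 4433 to 5485, Peg3 had 1864 to 2793 and Ndn had 157 to 328.

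Gliogenic genes, which include targets of the Nfi proteins, were all listed (18 of 18). None was called, 1 (Aldoc, a glycolytic enzyme, named after its values were seen) had an unadjusted p under 0.05 in limma, where 2.08% of all gene sums did, and the median log2 difference was −0.63, beside 0.0039 over all gene sums. Fabp7, a lipid-binding protein of radial glia, had 35613 to 39744 normalized counts, and Aldh1l1, a folate enzyme of astrocytes, had 16444 to 25549. Slc1a3, a glutamate transporter, had 17930.1 and 18280.5 in WT and 14544, 11597 and 17342 in p75NTR-/-. Sparcl1, a secreted matrix protein of astrocytes, had 53869 in WT replicate 1 and 16148 to 29534 in the other 4. The labels did not overlap for 4 of the 18 (Slc1a3, Aldoc and Slc1a2 lower and Tnc higher in p75NTR-/-), close to the 15.1% of all gene sums.

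Of 13 chromatin regulators that change with progenitor age, 13 were listed and 0 passed the test, with a median log2 difference of 0.19. The high mobility group genes Hmgn2 (3594 to 6206 normalized counts), Hmgb1 (7421 to 9672), Hmgb2 (3870.4 to 6786) and Hmgn3 (793 to 1069.6) led this list by TPM. None of these 4 genes separated the libraries numbered 4 from the other 3 as Hmga1 and Hmga2 did. Over the 13 genes, the libraries numbered 4 were above the other 3 for 1 and below them for 2. Hmgn1, a further high mobility group gene, was among the latter. Of all gene sums with a mean of at least 10, 23.4% were above and 21.4% below.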

How the data were processed

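Stranded mRNA libraries of 2 WT and 3 p75NTR-/- NSPC samples were quantified by the authors with Salmon 0.10.2 against the transcriptome of GRCm38.p6 and normalized with DESeq2 1.22.0 in R 3.6.1. The deposited signal of each transcript is its estimated count over the size factor that DESeq2 gave the library, with 0.5 added, and 0.5 was subtracted. The result was a whole multiple (within 0.02) of one step per library, which gave the depth. The TPM of each transcript, a second deposited signal, is the authors' own. The authors' fold changes, p-values and mean columns were not used. Repeat lines (303 of 22530) were dropped.

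limma 3.58.1 (lmFit, eBayes, pseudocount 1, no covariate) was run in R 4.3.3 on all 22227 transcripts and all 12588 gene sums, and tested on simulated data. Differences between labels are p75NTR-/- minus WT. Python 3.11.15, numpy 2.4.6 and pandas 2.3.3 were used otherwise, and 99.9% of transcripts were matched to GENCODE M21. The members and lists were chosen with earlier results of these data known. Named are all members, the 3 genes most like the most variable early and late member, and from each list the 4 highest by TPM, those called and those not listed, except 1 gene that is not reported here. Alternatives were other pseudocounts, filters and TMM scaling, a replicate block and leaving out libraries.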

Additional observations from a re-analysis of the deposited data

Results flagged for a closer look

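The difference between the labels took opposite signs in the 2 replicate numbers for 4 genes, with 1 library on each side, and these differences between numbers were not tested. On the log2 scale, p75NTR-/- minus WT was 0.60 in number 1 and −0.12 in number 4 for Hmga2, 1.01 and −0.28 for Igf2bp2, −0.69 and 0.17 for Nfic, and −2.21 and 0.36 for Zbtb20. The difference of number 4 minus number 1 likewise took opposite signs in the 2 labels for 4 late genes and was not tested. It was −0.45 in WT and 0.042 in p75NTR-/- for Nfia, −0.58 and 0.20 for Nfib, −0.44 and 0.81 for Nfix, and −0.49 and 2.09 for Zbtb20. For the 3 early genes this difference had the same sign in both labels.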

How the results depend on the processing

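No timing gene was called under any alternative run. No timing transcript was called in the alternatives that were counted, which did not include the transcript fit without both libraries numbered 4. Of 164 values recomputed, 149 were marked as the same, 14 turned sign and 1 moved. For fitted label differences, the same meant an equal sign and side of the threshold, and within a replicate number the sign only. For early minus late values it meant a shift under the pooled SD of 1.79, a wide margin. With normalized counts per kilobase, 2 neighbours in the order of levels had separate ranges instead of 1. The log2 difference between the labels turned to −0.052 with a pseudocount of 10 and to −0.12 within number 4 for Hmga2, to 0.17 within number 4 for Nfic and to 0.36 within number 4 for Zbtb20. For Igf2bp2 it was 0.36 with the replicate block, 0.42 without both libraries numbered 4 (chosen after seeing the data) and 1.01 within number 1.

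Leaving out 1 library at a time gave −0.98 to 1.45 for Hmga1, −1.44 to 1.5 for Hmga2, −2.86 to 1.71 for Igf2bp2, −0.46 to −0.01 for Nfia, −0.73 to −0.15 for Nfib, −0.35 to 0.13 for Nfic, −0.88 to −0.44 for Nfix and −1.64 to −0.59 for Zbtb20. The sign turned without WT replicate 1 (−0.98 for Hmga1 and −1.44 for Hmga2), without p75NTR-/- replicate 4 (−0.41 and −0.63), without WT replicate 4 or p75NTR-/- replicate 2 (1.71 and 0.36 for Igf2bp2) and without p75NTR-/- replicate 1 (0.13 for Nfic). The fits without WT replicate 1, without WT replicate 4 and without both libraries numbered 4 each keep a single WT library, so only their differences are given. The cause of the sign turns was not tested.

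With the replicate block (numbers 1 and 4 in both labels) the calls of timing genes and timing transcripts stayed at 0. Over the whole table the calls went from 1 to 0 gene sums and from 3 to 0 transcripts. In that model p75NTR-/- replicate 2 has no partner and does not enter the difference. The Igf2bp2 estimate with the block, 0.36, is therefore the same value as without that library, and its sign turn is counted again there. With so few libraries left for the error, the loss of calls says nothing on the pairing. Deviations of same-numbered libraries from their label means correlated at 0.26 (number 1) and 0.48 (number 4) across 10786 gene sums, but with 2 pairs the libraries share only a number. The deviations of the 2 WT libraries are equal and opposite, so both correlations use the same WT difference and are not separate. The count-based tests planned as alternatives were not run. A count of 0 allows 3 counts, so low transcripts are poorly bounded.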
